A study of Homo sapiens with 16 samples.

Results

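The NF-kappaB system was followed through 10 genes, taken by symbol, with no threshold on their values, from the 34228 genes of the count table, and all 10 were found. Of these, 5 encode the DNA-binding subunits (NFKB1, NFKB2, RELA, RELB and REL) and 5 encode inhibitors (NFKBIA, NFKBIB, NFKBIE, NFKBIZ and TNFAIP3). RNA-Seq was performed on 451Lu-R and 1205Lu-R, human melanoma cell lines with BRAF inhibitor resistance (BRAFi-R) that was raised by long culture in increasing doses of PLX4032 (vemurafenib). Counts were used for 4 groups of 2 libraries: each line given DMSO and each line given corin at 2.5 μM, for 24 h. Corin is a synthetic inhibitor of the CoREST complex, a corepressor that carries histone deacetylase and LSD1 demethylase activity, and DMSO is its solvent. The comparison of corin with DMSO addressed which transcripts change when CoREST is inhibited in resistant cells. Each phenotype (MITFhi/AXLlo for 451Lu-R, MITFlo/AXLhi for 1205Lu-R) was represented by 1 cell line, and the cultures that received PLX4032 in the experiment were not analysed here. Resistant lines were kept in medium with PLX4032 to hold their resistance. The treatments listed for the DMSO and corin groups name no PLX4032. Whether any stayed in their medium during the 24 h is not given in the sources used here.

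NF-kappaB proteins act as dimers of the 5 subunits. In resting cells the dimers are held back by IkappaB proteins, and signals from TNF, IL-1 or Toll-like receptors reach the IKK kinase complex, which marks IkappaB for destruction and frees the dimer to enter the nucleus. Several inhibitors, among them NFKBIA and TNFAIP3, are themselves transcribed by NF-kappaB and close feedback loops. In melanoma, the pathway is best known for its activity in cells with low MITF and high AXL and for its link with resistance to inhibitors of the MAPK pathway.

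The kappaB site is the DNA element that the dimers bind, and promoter windows of the members were searched for it because feedback of this kind runs through such sites. RefSeq promoter windows (GRCh38.p14, 250 bases before to 50 bases after a start site) were available for 8 of the 10 members, RELB and NFKBIE being the others. The window nearest to the GENCODE start held at least 1 match to the kappaB consensus, searched on both strands, in 5 of these 8 (NFKB1, REL, NFKBIA, NFKBIZ and TNFAIP3), against 11.27% of all 35116 windows. The stretches around the match are shown for 4 of them, 3 of which gave the widest changes described below (TNFAIP3, NFKB1 and NFKBIZ), while NFKBIA is the classical feedback inhibitor. REL, which held 2 matches, is not shown, and its transcript was called in neither line under corin. The nearest windows of NFKB2, RELA and NFKBIB held no match, although NFKBIB fell in both lines. Each reads 5′ to 3′ on the strand of the gene, ends before the annotated transcript start, and has the consensus matches in capitals.
NFKB1, chr4:102501250-102501329, plus strand: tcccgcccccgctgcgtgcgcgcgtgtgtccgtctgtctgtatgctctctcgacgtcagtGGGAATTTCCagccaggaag
TNFAIP3, chr6:137867132-137867213, plus strand: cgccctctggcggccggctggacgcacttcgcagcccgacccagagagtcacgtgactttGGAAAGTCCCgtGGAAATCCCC
NFKBIZ, chr3:101827740-101827836, plus strand: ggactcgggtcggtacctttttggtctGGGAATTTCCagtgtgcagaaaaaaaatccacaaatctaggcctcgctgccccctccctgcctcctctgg
NFKBIA, chr14:35404761-35404890, minus strand: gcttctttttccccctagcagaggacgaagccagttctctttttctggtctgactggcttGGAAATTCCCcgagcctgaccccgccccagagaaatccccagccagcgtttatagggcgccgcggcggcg
The match began 49 bases before the RefSeq start site in NFKB1, 81 bases before it in NFKBIA and 223 bases before it in NFKBIZ. TNFAIP3 held 2 matches, which began 67 and 55 bases before the start site. NFKB1 and NFKBIZ carried the same 10 bases, although their transcripts moved in opposite directions under corin in 1205Lu-R. A match in a window is a description of its letters, and binding was not measured in these data.

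Each library held 9516687 to 11797788 estimated counts in total, and the 10 genes with most counts took 5.95% to 8.78% of them. The lines matched their labels, since 7 melanocytic markers summed to 11699 to 13722 CPM (counts scaled to a common library total) in 451Lu-R and to 8.29 to 26.2 CPM in 1205Lu-R, where SOX10 and TYR were at 0 in every library. AXL, the receptor kinase of the other phenotype, was at most 2.47 CPM in 451Lu-R, and in 1205Lu-R it was 948 and 976 CPM under DMSO and 480 and 471 CPM under corin. Immune markers, of interest because leukocytes are rich in these transcripts, summed to at most 6.66 CPM in any library, endothelial markers to at most 27.6 CPM and keratinocyte markers to at most 5.42 CPM. The mitochondrial share of counts was higher under corin, at 5.86% to 5.90% against 2.98% to 3.07% in 451Lu-R and 0.705% to 0.707% against 0.377% in 1205Lu-R, and its part in the results was not tested. Counts of the 2 libraries of a group differed with a chi-square per degree of freedom of 1.34 to 1.40. Whether they came from separate cultures is not given in the sources used here, so p-values measure the spread between these libraries, which may be technical. In bulk RNA, fewer cells that express a gene and less of its RNA per cell cannot be told apart.

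With corin, 451Lu-R had 3 members higher (NFKB2, NFKBIA and TNFAIP3) and 4 lower (NFKB1, RELB, NFKBIB and NFKBIE), and 1205Lu-R had 4 higher (NFKB2, NFKBIA, NFKBIZ and TNFAIP3) and 4 lower (NFKB1, RELA, RELB and NFKBIB). A member was called when its adjusted p in edgeR's quasi-likelihood test was under 0.05 over all genes tested. By that rule 79.9% of 14530 genes were called in 451Lu-R and 78.3% of 14563 genes in 1205Lu-R, so that 7 and 8 calls among 10 members stood near the background. With a change of at least 2-fold as well, 1 member was higher (TNFAIP3) and 2 lower (NFKB1 and NFKBIB) in 451Lu-R, where 22.2% of all genes were higher and 13.3% lower by that rule (35.6% in all). In 1205Lu-R, 2 were higher (NFKBIZ and TNFAIP3) and 1 lower (NFKB1), against 22% and 9.8% of all genes (31.8% in all). The median log2 fold change of the 10 members was -0.08 in 451Lu-R and 0.01 in 1205Lu-R, beside 0.03 over all genes in both lines. All 10 passed the filter on low counts in both lines, with between 12 and 855 estimated counts per library.

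**Figure D1:**
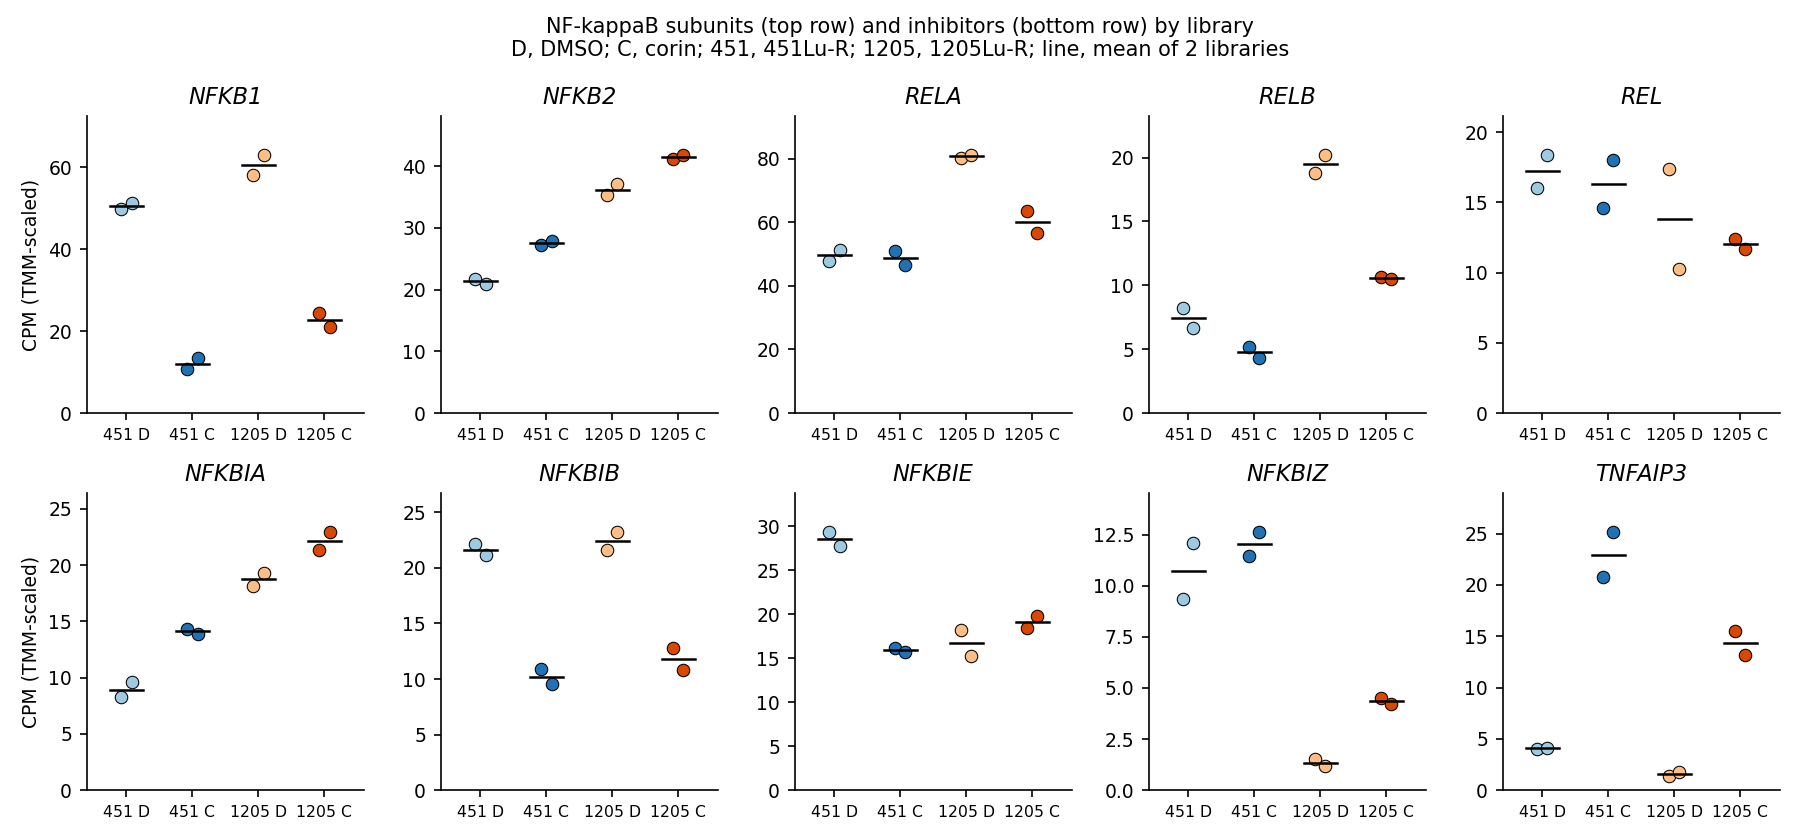
Level of each of the 10 genes in each library, in CPM after TMM scaling on a linear axis from 0, with points for the 2 libraries of a group and a line at their mean. NFKB1 and NFKBIB sat lower and TNFAIP3 higher under corin in both lines, while NFKBIE separated the treatments in 451Lu-R and NFKBIZ in 1205Lu-R.

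Among the subunits, NFKB1 fell in both lines. The gene (chr4:102501330-102617302, plus strand, GENCODE 44 span on GRCh38, as for the spans of the other members) encodes p105, the precursor of p50, which partners RELA in the most common dimer. Its level was 49.8 and 51.3 CPM in the 451Lu-R libraries under DMSO and 10.6 and 13.5 CPM under corin, after TMM scaling over the 8 libraries. In 1205Lu-R it was 58.2 and 62.9 CPM under DMSO and 24.4 and 21.1 CPM under corin. The 4 corin libraries all lay under the 4 DMSO libraries, without overlap between groups. The fall was 4.30-fold in 451Lu-R (log2 fold change -2.10 ± 0.09, SE, edgeR adjusted p = 6.43e-14) and 2.64-fold in 1205Lu-R (-1.40 ± 0.08, edgeR adjusted p = 3.93e-13). The response of 1205Lu-R minus that of 451Lu-R was 0.66 ± 0.14 on the log2 scale (edgeR adjusted p = 0.000341), so the fall was larger in 451Lu-R.

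NFKB2 moved little, and upward. The gene (chr10:102394110-102402524, plus strand) encodes p100, which is both the precursor of p52 and an IkappaB-like inhibitor. Levels were 21.7 and 20.9 CPM under DMSO and 27.2 and 27.8 CPM under corin in 451Lu-R. In 1205Lu-R they were 35.3 and 37.1 CPM under DMSO and 41.2 and 41.8 CPM under corin. The groups did not overlap, and the rises were 1.27-fold (log2 fold change 0.34 ± 0.09, edgeR adjusted p = 0.00114) and 1.16-fold (0.21 ± 0.07, edgeR adjusted p = 0.0087). Neither call held with DESeq2 (adjusted p = 0.0526 and 0.136), and that in 1205Lu-R was also lost without the low-count filter (0.17, adjusted p = 0.0656) and without DMSO replicate 1 (0.16, adjusted p = 0.113). The ratio of NFKB1 to NFKB2 counts, whose change between groups does not depend on gene length, went from 2.29 and 2.45 to 0.392 and 0.483 in 451Lu-R. In 1205Lu-R it went from 1.65 and 1.70 to 0.592 and 0.504.

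RELA (chr11:65653599-65663090, minus strand), the p65 subunit that carries the main transactivation domain, changed in 1205Lu-R. There it was 80.3 and 81.2 CPM under DMSO and 63.7 and 56.5 CPM under corin, a fall of 1.33-fold (log2 fold change -0.42 ± 0.06, edgeR adjusted p = 5.99e-07). In 451Lu-R the levels overlapped, at 47.9 and 51.4 CPM under DMSO and 50.9 and 46.5 CPM under corin. The log2 fold change there was -0.04, with a 95% confidence interval from -0.19 to 0.10 (edgeR adjusted p = 0.561). The difference between the lines was -0.41 ± 0.09 (edgeR adjusted p = 0.000658), and scaling to library size alone, which moved the median of all genes from -0.01 to 0.20, gave -0.20 (adjusted p = 0.0695). RELA shares 103 exonic bases with RELA-DT on the opposite strand, which had at most 25.5 counts in any library.

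RELB (chr19:45001461-45038192, plus strand), which pairs with p52 in the noncanonical branch of the pathway, fell in both lines. It read 8.23 and 6.68 CPM under DMSO and 5.19 and 4.35 CPM under corin in 451Lu-R, and 18.8 and 20.2 CPM under DMSO and 10.7 and 10.5 CPM under corin in 1205Lu-R. All corin libraries lay below the DMSO libraries of the same line. The falls were 1.59-fold (log2 fold change -0.66 ± 0.19, edgeR adjusted p = 0.00349) and 1.83-fold (-0.87 ± 0.12, edgeR adjusted p = 7.11e-07). The first was not called by DESeq2 (adjusted p = 0.0850) or without DMSO replicate 1 (-0.51, adjusted p = 0.0601), and the difference between the lines was -0.24, with an interval from -0.70 to 0.22.

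REL (chr2:60881491-60931612, plus strand), which encodes c-Rel, a subunit best known from lymphocytes, was called in neither line. It was 16 and 18.4 CPM under DMSO and 14.6 and 18.0 CPM under corin in 451Lu-R, with log2 fold change -0.11 and an interval from -0.36 to 0.15. In 1205Lu-R it was 17.4 and 10.2 CPM under DMSO and 12.4 and 11.7 CPM under corin, with log2 fold change -0.19 and an interval from -0.54 to 0.16. The 1205Lu-R value rested on which DMSO library was kept, being -0.53 (adjusted p = 0.000673) without replicate 2 and 0.23 without replicate 1. REL shares 5702 exonic bases with ENSG00000267520, a lncRNA on the same strand whose reads salmon cannot separate by position alone. In the DMSO libraries of 1205Lu-R, REL had 185 and 105 counts and the overlapping gene 0 and 60.7. With both summed, an alternative chosen after seeing the data, the log2 fold change was 0.27 in 1205Lu-R (adjusted p = 0.0239), whereas 451Lu-R gave -0.05 (adjusted p = 0.649), so the direction for REL in 1205Lu-R is uncertain.

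The inhibitors were more divided. NFKBIA (chr14:35401079-35404749, minus strand) encodes IkappaB-alpha, the inhibitor that is destroyed and remade within the feedback loop. It read 8.23 and 9.63 CPM under DMSO and 14.3 and 13.9 CPM under corin in 451Lu-R, and 18.1 and 19.3 CPM under DMSO and 21.3 and 22.9 CPM under corin in 1205Lu-R. The 4 groups did not overlap, and the rise was 1.56-fold in 451Lu-R (log2 fold change 0.64 ± 0.13, edgeR adjusted p = 0.000197) and 1.2-fold in 1205Lu-R (0.26 ± 0.10, edgeR adjusted p = 0.0212). The call in 1205Lu-R was lost with DESeq2 (0.26, adjusted p = 0.201), without the low-count filter (0.21, adjusted p = 0.0823), without DMSO replicate 1 (0.20, adjusted p = 0.129) and without corin replicate 2 (0.20, adjusted p = 0.144). The difference between the lines, -0.42 ± 0.16 (edgeR adjusted p = 0.0325), was lost in 8 of 15 alternatives.

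NFKBIB (chr19:38899700-38908893, plus strand) encodes IkappaB-beta, which holds dimers for longer than IkappaB-alpha does. It went from 22.2 and 21.1 CPM to 10.9 and 9.52 CPM in 451Lu-R and from 21.6 and 23.2 CPM to 12.8 and 10.8 CPM in 1205Lu-R. The lines overlapped each other under DMSO and under corin, and the treatments did not overlap. The falls were 2.14-fold (log2 fold change -1.10 ± 0.11, edgeR adjusted p = 2.71e-08) and 1.89-fold (-0.92 ± 0.12, edgeR adjusted p = 2.63e-07). Their difference was 0.15, with an interval from -0.19 to 0.49. NFKBIB shares 40 exonic bases with SIRT2 on the opposite strand, and whether the counting used strand is not given in the sources used here.

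NFKBIE (chr6:44258166-44265788, minus strand), which encodes IkappaB-epsilon, fell in 451Lu-R from 29.3 and 27.7 CPM to 16.2 and 15.7 CPM. In 1205Lu-R it was 18.2 and 15.2 CPM under DMSO and 18.5 and 19.9 CPM under corin. The corin libraries lay below DMSO in 451Lu-R and above it, by a narrow margin, in 1205Lu-R. The log2 fold changes were -0.86 ± 0.09 (edgeR adjusted p = 4.09e-08) and 0.21, with an interval from -0.02 to 0.44 (edgeR adjusted p = 0.087). The difference between the lines was 1.04 ± 0.14 (edgeR adjusted p = 3.02e-06) and was called in all 15 alternatives.

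NFKBIZ (chr3:101827991-101861022, plus strand) encodes IkappaB-zeta, an atypical nuclear member of the family that also coactivates some target genes. It was 9.37 and 12.1 CPM under DMSO and 11.4 and 12.6 CPM under corin in 451Lu-R, where the groups overlapped. In 1205Lu-R it was 1.5 and 1.17 CPM under DMSO, from 16 and 12 counts, and 4.51 and 4.22 CPM under corin. The rise there was 3.27-fold (log2 fold change 1.71 ± 0.30, edgeR adjusted p = 2.05e-05), while the log2 fold change in 451Lu-R was 0.15, with an interval from -0.15 to 0.45 (edgeR adjusted p = 0.356). The difference between the lines was 1.52 ± 0.32 (edgeR adjusted p = 0.000492). NFKBIZ shares 194 exonic bases with NXPE3 on the same strand, so part of its reads could be split between them.

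TNFAIP3 (chr6:137867214-137883314, plus strand) encodes A20, a ubiquitin-editing enzyme that shuts off signaling upstream of IKK. It changed more than any other member in both lines. In 451Lu-R it went from 4.03 and 4.13 CPM under DMSO to 20.8 and 25.1 CPM under corin, and in 1205Lu-R from 1.41 and 1.76 CPM to 15.5 and 13.2 CPM. The 1205Lu-R values under DMSO came from 15 and 18 counts. Every corin library was above every DMSO library of either line. The rise was 5.50-fold in 451Lu-R (log2 fold change 2.46 ± 0.15, edgeR adjusted p = 8.49e-12) and 9.06-fold in 1205Lu-R (3.18 ± 0.20, edgeR adjusted p = 3.98e-12). The difference between the lines was 0.68, with an interval from 0.04 to 1.32, and was not called (edgeR adjusted p = 0.0713). TNFAIP3 counts relative to NFKBIA counts went from 0.489 and 0.429 to 1.45 and 1.81 in 451Lu-R and from 0.0777 and 0.0909 to 0.726 and 0.575 in 1205Lu-R. TNFAIP3 shares 95 exonic bases with WAKMAR2 on the opposite strand, which had at most 13.4 counts in any library.

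**Figure D2:**
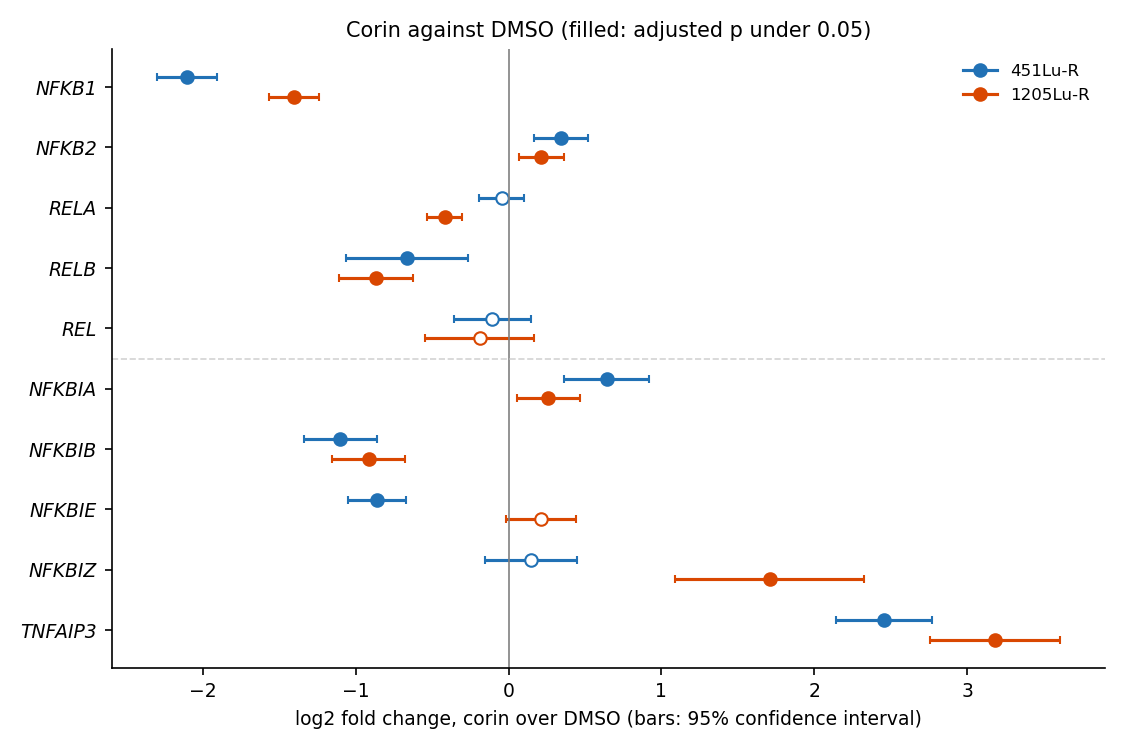
Log2 fold change of corin over DMSO for each gene in 451Lu-R and 1205Lu-R, with 95% confidence intervals and filled points for an edgeR adjusted p under 0.05, subunits above and inhibitors below the dashed line. TNFAIP3 (2.46 and 3.18) and NFKB1 (-2.10 and -1.40) stood farthest from 0 on either side, and NFKBIE (-0.86 and 0.21) and NFKBIZ (0.15 and 1.71) parted between the lines.

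Across the lines, 3 members rose in both (NFKB2, NFKBIA and TNFAIP3), 3 fell in both (NFKB1, RELB and NFKBIB), and REL was called in neither. Of 13200 genes tested in both lines, 28.8% rose in both, 28.5% fell in both, 10.1% were called in opposite directions, against 0 of the 10 members, and 8% were called in neither. Counts of 3, 3, 0 and 1 among 10 members stood near these shares. The test of the difference in response called 5 of 10 members, with 1205Lu-R above 451Lu-R for NFKB1, NFKBIE and NFKBIZ and below it for RELA and NFKBIA, where 49.7% of 16062 genes were called (22.6% above and 27.1% below). At a difference of at least 2-fold, NFKBIE and NFKBIZ were called above and none below, against 9.34% and 9.46% of all genes (18.8% in all). For NFKB2, RELB, REL, NFKBIB and TNFAIP3 the difference did not pass, and their intervals reached as far as -0.39, -0.70, -0.62, 0.49 and 1.32 on the log2 scale.

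The lines already differed without corin. With DMSO, 1205Lu-R had more NFKB1, NFKB2, RELA, RELB and NFKBIA and less NFKBIE, NFKBIZ and TNFAIP3 than 451Lu-R, 5 calls higher and 3 lower of 10, where 75.4% of 16062 genes were called (38.2% higher and 37.2% lower). At least 2-fold, RELB and NFKBIA were higher and NFKBIZ and TNFAIP3 lower, against 19.3% and 20.4% of all genes (39.7% in all). NFKBIZ, at 1.5 and 1.17 CPM against 9.37 and 12.1 CPM, was 7.91-fold lower in 1205Lu-R (log2 fold change -2.98 ± 0.23, edgeR adjusted p = 1.45e-10), and TNFAIP3 was 2.57-fold lower (-1.36 ± 0.27, edgeR adjusted p = 0.000134). RELB was 2.60-fold higher (1.38 ± 0.13, edgeR adjusted p = 4.68e-09) and NFKBIA 2.10-fold higher (1.07 ± 0.12, edgeR adjusted p = 3.40e-08). NFKB2 (0.76), RELA (0.70) and NFKB1 (0.26) were higher by less, and NFKBIE was lower (-0.77). The call for NFKB1 was lost with scaling to library size alone (0.14, adjusted p = 0.0907). Neither NFKBIB, with 0.05 and an interval from -0.16 to 0.25, nor REL, with -0.31 and an interval from -0.65 to 0.03, passed the test.

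With corin, 6 members were higher and 3 lower in 1205Lu-R, where 76.9% of all genes were called (38% higher and 39% lower). At least 2-fold, RELB was higher and NFKBIZ lower, against 18.5% and 19.7% of all genes. NFKBIZ remained lower in 1205Lu-R (-1.46 ± 0.18, edgeR adjusted p = 1.83e-07) and so did TNFAIP3 (-0.68 ± 0.12, edgeR adjusted p = 3.54e-05). NFKB1, with its smaller fall in 1205Lu-R, was 1.89-fold higher there (0.92 ± 0.11, edgeR adjusted p = 2.66e-07). NFKBIE turned, from -0.77 under DMSO to 0.27 under corin (edgeR adjusted p = 0.0275), although the latter call was lost with DESeq2 (adjusted p = 0.0954), without the low-count filter (adjusted p = 0.0604), without either 451Lu-R corin library (0.28 and 0.24, adjusted p = 0.0755 and 0.112) and without 1205Lu-R corin replicate 2 (0.20, adjusted p = 0.189). RELB (1.13), NFKBIA (0.65), NFKB2 (0.60) and RELA (0.29) stayed higher in 1205Lu-R. REL was lower (-0.43, edgeR adjusted p = 0.0273), a call lost with DESeq2 (adjusted p = 0.0782), with library size alone (adjusted p = 0.0709), without 451Lu-R corin replicate 2 (-0.29, adjusted p = 0.188), without 1205Lu-R corin replicate 2 (-0.39, adjusted p = 0.0967) and with its overlapping gene added (-0.17, adjusted p = 0.108).

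**Figure D3:**
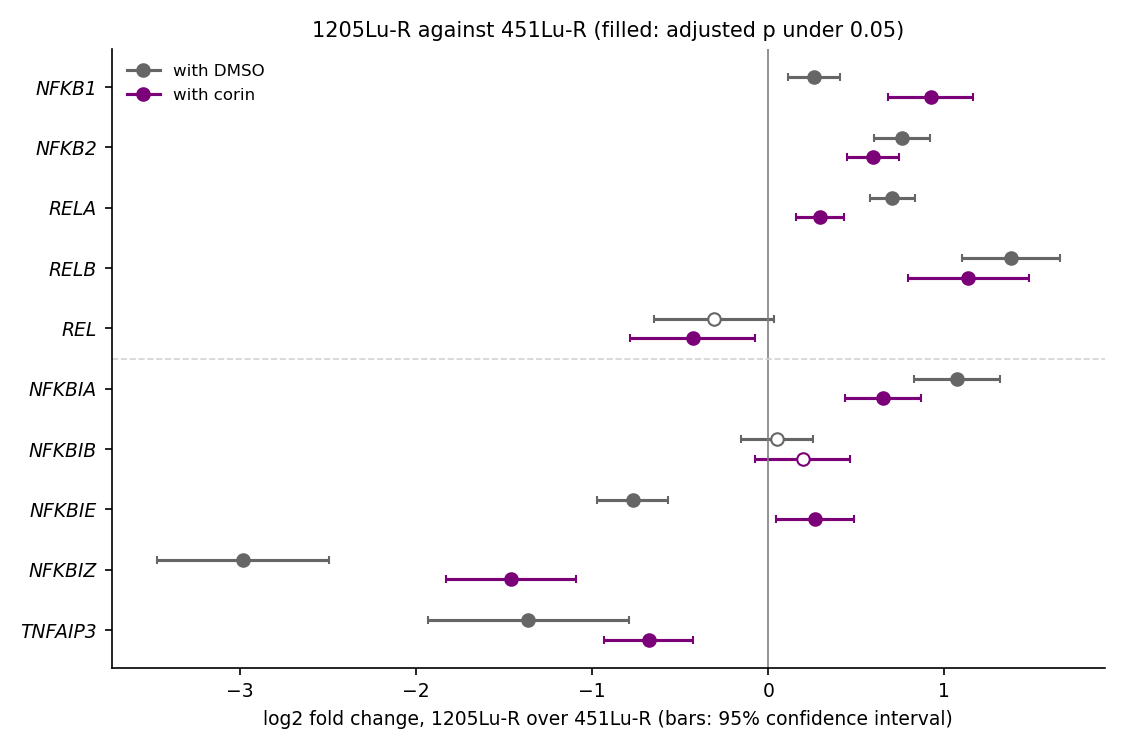
Log2 fold change of 1205Lu-R over 451Lu-R for each gene, under DMSO and under corin, with 95% confidence intervals and filled points for an edgeR adjusted p under 0.05. NFKBIZ and TNFAIP3 were lower in 1205Lu-R under both treatments (-2.98 and -1.46, -1.36 and -0.68), and NFKBIE changed side, from -0.77 to 0.27.

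Ordering the 4 groups by mean level gave 30 neighbouring pairs over the 10 members, of which 21 differed and 9 did not pass. Over all genes, 72.6% to 83.1% were called in the 6 pairs of groups (74.2%, 75.4%, 76.9% and 81.8% in the others). Those shares are for fixed pairs of groups, while neighbours in a gene's own order are its closest groups. The counts and shares therefore cannot be set against each other. For NFKB1, NFKB2, RELB, NFKBIA and TNFAIP3 every step in the order passed. TNFAIP3 spanned the widest range, 14.5-fold from 1.58 CPM in 1205Lu-R under DMSO through 4.08 and 14.3 CPM to 23.0 CPM in 451Lu-R under corin. NFKBIZ spanned 9.0-fold, and its top groups, both of 451Lu-R, did not differ beyond their spread. NFKB1 spanned 5.02-fold, from 12.1 CPM in 451Lu-R under corin to 60.5 CPM in 1205Lu-R under DMSO. NFKBIB formed a pair of DMSO groups (22.4 and 21.6 CPM) over a pair of corin groups (11.81 and 10.2 CPM) with no difference within either pair. In NFKBIE, 451Lu-R under DMSO stood above the other groups (28.5 CPM against 19.2, 16.7 and 16 CPM), which could not be separated from their neighbours. REL showed no step past the threshold over a 1.43-fold range, and RELA none between the 451Lu-R groups.

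To compare levels between genes, TMM-scaled CPM was divided by exonic length in kilobases, and each gene was expressed as a percent of the sum over the 10 members. RELA led in 1205Lu-R with 27.1% ± 0.05 (SD, n = 2) under DMSO and 23.9% ± 1.36 under corin. In 451Lu-R under DMSO the leading gene was NFKBIE, with 24.5% ± 1.0, followed by NFKBIB with 20.7% ± 0.70 and RELA with 20.2% ± 0.99, and under corin it was RELA with 23.8% ± 1.26. TNFAIP3 went from 1.40% ± 0.02 to 9.51% ± 1.40 in 451Lu-R and from 0.450% ± 0.07 to 4.82% ± 0.42 in 1205Lu-R. NFKB1 went from 7.15% ± 0.14 to 2.05% ± 0.36 and from 7.07% ± 0.33 to 3.14% ± 0.24.

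The 5 subunits together held 43.3% and 43.8% of the sum in 451Lu-R under DMSO and 46.2% and 45.3% under corin. In 1205Lu-R they held 59.1% and 59.8% under DMSO and 52.9% and 51.7% under corin. Their share was thus higher in 1205Lu-R than in 451Lu-R in every library, and lower under corin than under DMSO in 1205Lu-R. With the longest annotated transcript as the length, the shares were 54.9%, 54.8%, 68.9% and 61.4% in the same order of groups, so that the percent depends on the length chosen, the 2 treatments of 451Lu-R no longer differed by more than 1 percentage point, and RELA led in all 4 groups. For corin against DMSO within a line, 2 libraries against 2, an exact 2-sided test cannot go below p = 0.333, and the shares of the lines were not tested.

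**Figure D4:**
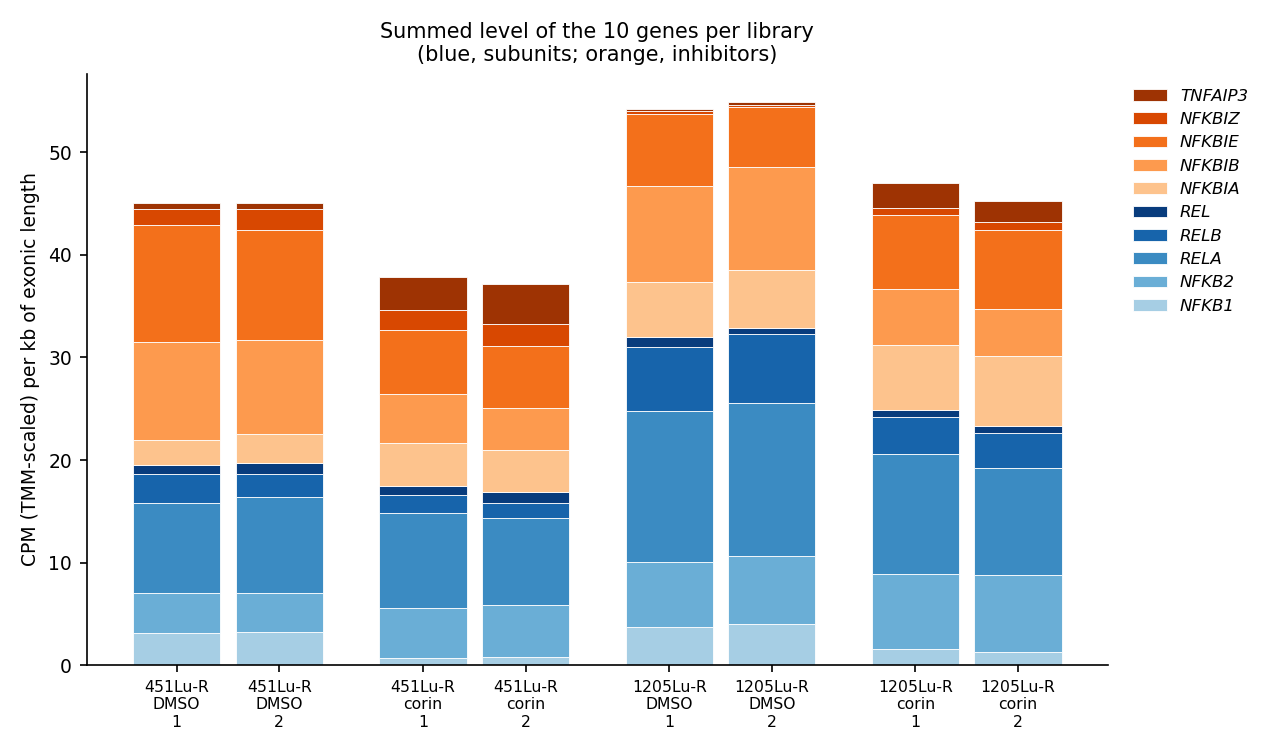
Stacked level of the 10 genes in each library, in TMM-scaled CPM per kilobase of exonic length, with subunits in blue and inhibitors in orange. The subunits make up 43.3% to 46.2% of the column in 451Lu-R and 51.7% to 59.8% in 1205Lu-R, and the band of TNFAIP3 at the top widens under corin.

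The genes around the members were read from 7 lists of 94 genes, of which 92 were in the table. In 451Lu-R, 67 of them were tested, and 31 rose, 26 fell and 10 did not pass, where 41.3% of all genes were called higher and 38.6% lower. In 1205Lu-R, 74 were tested, and 33 rose, 31 fell and 10 did not pass, where 40.4% were called higher and 37.8% lower. The other genes in the table, 25 and 18 of them, were below the filter on low counts. A gene that reaches the filter through the corin libraries alone can only enter as higher, and 9 of the tested genes in 451Lu-R (CXCL8, CCL20, CSF1, PTGS2, MMP9, CD40, IRAK2, TRAF1 and MAP3K8) and 5 in 1205Lu-R (CCL5, CCL20, PTGS2, TNFSF13B and MAP3K8) had under 10 counts in both DMSO libraries and not in both corin libraries, while none had the reverse. Without them, 22 rose and 26 fell of 58 in 451Lu-R, and 29 were up and 31 down among 69 in 1205Lu-R. This rule keeps a gene with only 1 DMSO library under 10 counts, such as CXCL8 in 1205Lu-R (7 and 11 counts). Each list's counts and median therefore describe the tested genes and not the list as a whole. The shares over all genes given here belong beside the counts of every list below.

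Upstream of the members, ligand genes were mostly silent, since 9 were in the table and the filter kept 1 for 451Lu-R and 3 for 1205Lu-R. TNFSF13B, which encodes BAFF, was 5.96 and 5.90 CPM under DMSO and 4.14 and 4.24 CPM under corin in 451Lu-R (log2 fold change -0.52 ± 0.20, edgeR adjusted p = 0.0225), a call that DESeq2 did not make (adjusted p = 0.220) and that was lost without any 1 library (-0.54 to -0.50). In 1205Lu-R, TNFSF12, which encodes TWEAK, fell from 18.8 and 16.1 to 9.64 and 9.22 CPM (-0.87 ± 0.13, edgeR adjusted p = 2.28e-06). The proinflammatory cytokine IL1B rose from 3.57 and 3.41 to 6.66 and 5.09 CPM in 1205Lu-R (0.75 ± 0.22, edgeR adjusted p = 0.00386), a call lost with DESeq2 (adjusted p = 0.0707) and without corin replicate 1 (0.56, adjusted p = 0.0655).

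Of 9 receptors tested in each line, 6 rose and 3 fell in 451Lu-R (median log2 fold change 0.84) and 5 rose and 4 fell in 1205Lu-R (median 0.15). Without CD40, which had under 10 counts in both DMSO libraries of 451Lu-R, 5 rose and 3 fell of 8 there (median 0.74). In 451Lu-R, TNFRSF11A, which encodes RANK, rose from 4.73 and 4.91 to 32.2 and 35.4 CPM (log2 fold change 2.78 ± 0.12, edgeR adjusted p = 3.68e-14). The TWEAK receptor TNFRSF12A rose from 8.93 and 10.0 to 26.3 and 26.2 CPM (1.45 ± 0.11, edgeR adjusted p = 2.05e-10). CD40 had 0 counts in both DMSO libraries of 451Lu-R and 29 and 26 counts under corin, at least 8.64-fold higher against a floor of 3 counts per library. In 1205Lu-R, TNFRSF1B, which encodes TNFR2, rose from 4.70 and 5.95 to 59.1 and 59.1 CPM (3.49 ± 0.10, edgeR adjusted p = 4.81e-18), and IL1RAP, the accessory chain of the IL-1 receptor, from 30.1 and 28.8 to 59.6 and 62.3 CPM (1.07 ± 0.07, edgeR adjusted p = 3.11e-12). TLR4, the receptor for lipopolysaccharide, fell from 101 and 105 to 23.4 and 21.1 CPM (-2.20 ± 0.06, edgeR adjusted p = 2.90e-18).

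Of the adaptors and ubiquitin ligases tested, 5 rose and 9 fell of 18 in 451Lu-R (median -0.25), where 41.3% of all genes were called higher and 38.6% lower. In 1205Lu-R, 4 rose and 11 fell of 19 (median -0.22), against 40.4% and 37.8% of all genes. Without IRAK2 and TRAF1, which had under 10 counts in both DMSO libraries of 451Lu-R, 3 rose and 9 fell of 16 there (median -0.33). IRAK1, a kinase-adaptor of the IL-1 and Toll-like receptors, fell in both lines, from 244 and 235 to 95.7 and 95.5 CPM in 451Lu-R (-1.35 ± 0.04, edgeR adjusted p = 1.26e-17) and from 502 and 532 to 267 and 269 CPM in 1205Lu-R (-0.93 ± 0.03, edgeR adjusted p = 1.42e-16). Its relative IRAK2 rose in both, from 0.175 and 0.786 to 4.93 and 5.48 CPM (3.43 ± 0.40) and from 6.95 and 6.34 to 19.3 and 18.4 CPM (1.51 ± 0.13, edgeR adjusted p = 7.52e-10). With 2 and 8 counts under DMSO in 451Lu-R, IRAK2 could only enter as higher there, so no p-value is given for that line. MYD88, the adaptor on which IRAK1 and IRAK2 assemble, fell in 451Lu-R from 7.53 and 7.17 to 2.55 and 3.21 CPM (-1.38 ± 0.21, edgeR adjusted p = 6.53e-06). BIRC3, which encodes the ubiquitin ligase cIAP2, rose in 1205Lu-R from 6.86 and 5.27 to 29.0 and 27.7 CPM (2.23 ± 0.13, edgeR adjusted p = 4.82e-13).

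The kinases divided, with 5 rising and 4 falling in 451Lu-R (median 0.11) and 5 and 3 in 1205Lu-R (median 0.11) of 11. Without MAP3K8, which had under 10 counts in both DMSO libraries of each line, 4 rose and 4 fell of 10 in 451Lu-R (median -0.06). In 1205Lu-R, 4 rose and 3 fell of 10 without it (median 0.03). IKBKG, which encodes NEMO, the scaffold of the IKK complex, fell from 36.7 and 36.8 to 23.8 and 23.1 CPM in 451Lu-R (-0.67 ± 0.08, edgeR adjusted p = 1.60e-07) and from 24.3 and 24.9 to 13.2 and 13.1 CPM in 1205Lu-R (-0.89 ± 0.10, edgeR adjusted p = 7.63e-08). The IKK-related kinase IKBKE also fell in both, from 4.73 and 5.90 to 2.02 and 3.52 CPM (-0.98 ± 0.27, edgeR adjusted p = 0.00241) and from 21.1 and 20.4 to 15.2 and 13.6 CPM (-0.52 ± 0.11, edgeR adjusted p = 0.000174), although the former call was lost without corin replicate 1 (-0.60, adjusted p = 0.0614). MAP3K8, the kinase TPL2 that p105 holds inactive, rose in 451Lu-R from 0.788 and 0.884 to 2.99 and 4.04 CPM (2.03 ± 0.36). With 9 and 9 counts under DMSO there, it could only enter as higher, so no p-value is given. TAB3, a partner of the kinase TAK1, rose in 1205Lu-R from 17.5 and 14.3 to 28.2 and 25.3 CPM (0.76 ± 0.11, edgeR adjusted p = 1.25e-06).

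Beside TNFAIP3 and the IkappaB genes stand other brakes of the pathway. Of 8 deubiquitinases and A20 partners tested, 3 rose and 4 fell in 451Lu-R (median -0.24) and 2 rose and 5 fell in 1205Lu-R (median -0.11). OTUD7B, the deubiquitinase Cezanne, fell in 451Lu-R from 117 and 127 to 63.0 and 62.5 CPM (-0.98 ± 0.05, edgeR adjusted p = 6.67e-13). The A20-binding protein TNIP1 fell there from 51.4 and 45.0 to 31.7 and 34.8 CPM (-0.57 ± 0.08, edgeR adjusted p = 2.05e-06), and RNF11, another A20 partner, rose from 115 and 110 to 162 and 159 CPM (0.49 ± 0.04, edgeR adjusted p = 2.95e-10). In 1205Lu-R, CYLD, a deubiquitinase that acts on the same ubiquitin chains as A20, fell from 32.1 and 35.2 to 13.6 and 13.8 CPM (-1.28 ± 0.10, edgeR adjusted p = 6.60e-11). The A20 partners ITCH, with 76.7 and 72.8 CPM before and 50.7 and 49.9 CPM after, and TNIP2, with 48.4 and 51.9 and then 34.2 and 35 CPM, fell as well (-0.56 and -0.52, edgeR adjusted p = 4.91e-09 and 7.17e-07).

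Of the 3 other IkappaB-type genes, 2 were tested in each line. NFKBIL1 fell from 14.7 and 13.9 to 8.01 and 6.83 CPM in 451Lu-R (-0.96 ± 0.14, edgeR adjusted p = 2.66e-06) and from 16.4 and 15.6 to 6.87 and 4.48 CPM in 1205Lu-R (-1.50 ± 0.16, edgeR adjusted p = 1.92e-08). BCL3, a nuclear IkappaB that works with p50 and p52, fell in 1205Lu-R from 22.9 and 25.8 to 19.8 and 18.4 CPM (-0.33 ± 0.10, edgeR adjusted p = 0.00415), which DESeq2 did not call (adjusted p = 0.0948).

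Downstream, 29 genes commonly listed as NF-kappaB targets were in the table. In 451Lu-R 12 rose and 4 fell of 18 tested, with a median log2 fold change of 0.89, while 1205Lu-R had 16 up and 5 down among 22, with a median of 1.40, beside 0.03 over all genes in both. Of all genes, 41.3% were called higher and 38.6% lower in 451Lu-R, and 40.4% higher and 37.8% lower in 1205Lu-R. Without the 5 and 3 target genes that had under 10 counts in both DMSO libraries, 7 rose and 4 fell of 13 in 451Lu-R, with a median of 0.30, and 13 were up and 5 down among 19 in 1205Lu-R, with a median of 1.30. CXCL8, which encodes interleukin-8, went from 2 and 2 counts to 252 and 187 counts in 451Lu-R, a ratio of 104 with a counting interval from 40.2 to 382. In 1205Lu-R it went from 0.658 and 1.07 to 184 and 175 CPM (7.70 ± 0.11). With 7 and 11 counts under DMSO there, CXCL8 reached the filter only with the corin libraries, so no p-value is given. It is still among the 19 genes counted above for 1205Lu-R. MMP9, a matrix metalloproteinase, had 1 and 3 counts under DMSO and 68 and 55 under corin in 451Lu-R, a ratio of 29.0 with a counting interval from 11 to 108. GADD45B, a stress sensor, rose there from 2.01 and 1.47 to 19.1 and 16.6 CPM (3.32 ± 0.19, edgeR adjusted p = 2.89e-12). PTGS2, the cyclooxygenase COX-2, rose in 1205Lu-R from 0.658 and 0.293 to 15.9 and 18.2 CPM (5.14 ± 0.26). With 7 and 3 counts under DMSO there, it could only enter as higher, so no p-value is given. The chemokine CCL20 had 0 counts in both DMSO libraries of 1205Lu-R and 38 and 35 under corin, at least 12.9-fold higher against the floor of 3 counts per library. NF-kappaB activity itself was not measured.

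**Figure D5:**
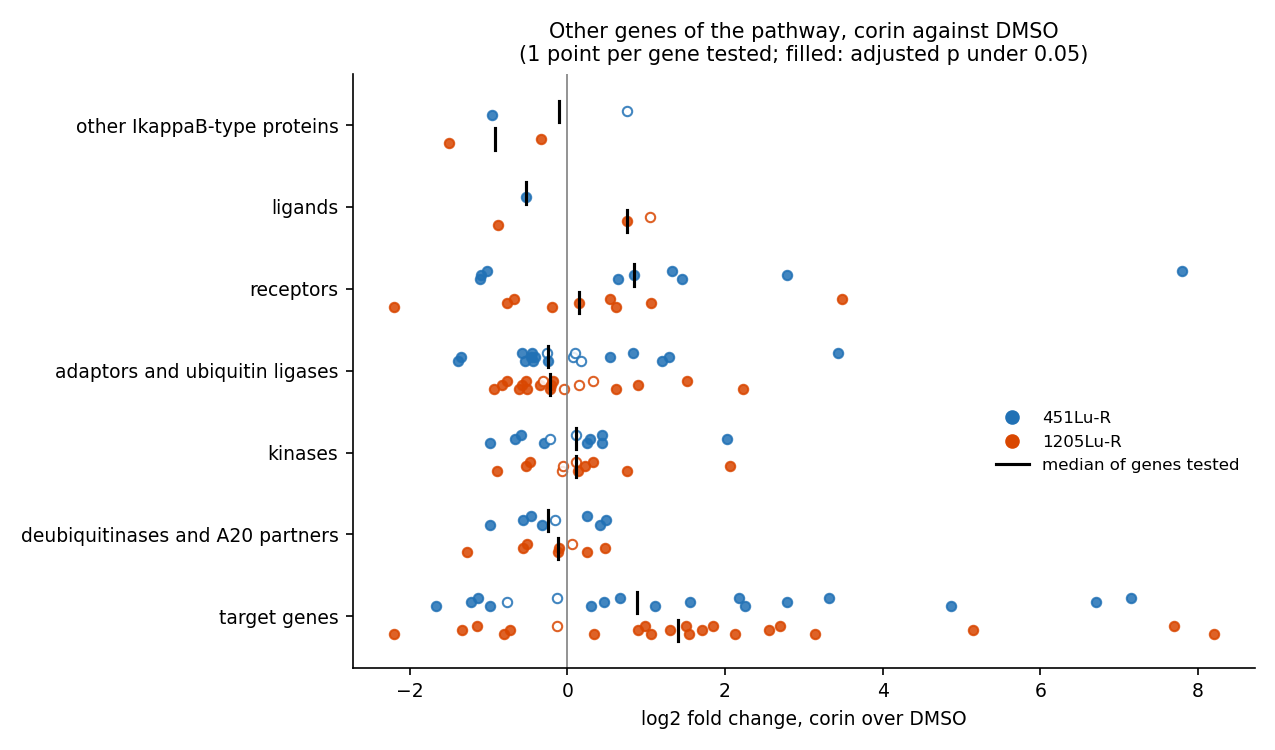
Log2 fold change of corin over DMSO for the tested genes of 7 pathway lists, 1 point per gene and line, filled for an edgeR adjusted p under 0.05, with a bar at the median of each list. The medians of the target genes are 0.89 for 451Lu-R and 1.40 for 1205Lu-R, and fall to 0.30 and 1.30 without genes under 10 counts in both DMSO libraries. Genes with 0 counts in DMSO, such as CD40 and CCL20, are drawn at a fitted value that depends on the prior count.

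Likeness of pattern was measured as the root mean square difference of centred log2 CPM over the 8 libraries, among 14430 genes, for the 3 members with the widest change. Nearest to TNFAIP3 were TLCD4 (0.14) and FOXO1 (0.18), nearest to NFKB1 were PPRC1 (0.08) and POLE3 (0.15), and nearest to NFKBIZ were PLXNB3 (0.15) and LXN (0.15). All points share the same libraries, and each value is a description with no test.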

How the data were processed

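RNA of the 2 lines was sequenced after 24 h of corin or DMSO. Reads were trimmed by the authors (trimmomatic) and assigned to transcripts of GENCODE v32 by salmon. The deposited values are expected counts, salmon's estimates summed to genes, with no normalization. Versions are not given in the sources used here. The deposited PLX4032 tables hold the log2 fold changes and adjusted p-values of the authors' own comparisons and were not used.

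Of 34228 genes, 34052 were matched to a GENCODE 44 symbol, and gene spans, lengths and overlaps were taken from it (GRCh38). Counts were rounded and tested with edgeR 4.0.16 in R 4.3.3 (filterByExpr, TMM, glmQLFit and glmQLFTest, 2-sided, Benjamini-Hochberg over all genes tested). Corin was compared with DMSO on the 4 libraries of a line, and the lines and their responses on all 8. A call needed an adjusted p under 0.05. SE is the log2 fold change over the square root of the test's F. The small p-values rest on the low spread between libraries and on information shared across genes. TMM factors ran from 0.962 to 1.05. Intervals on count ratios and floors of 3 counts cover counting error only. The code of the edgeR and DESeq2 tests was run first on simulated counts of known fold changes, and the other steps were not.

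All members were named. From each pathway list, at most 3 genes per line with the largest called change and a mean of at least 1 CPM were named. For the 3 members with the largest change, the 2 genes nearest in pattern were named. The members and lists were chosen with earlier results of these data known. Alternatives were RLE size factors, library size only, DESeq2 1.42.0, a filter at 1 CPM in place of filterByExpr or none at all, the replicate number as a block, other libraries in the fit, a fold threshold of 2, and leaving out each library in turn. The summed level of 1 marker list, for dedifferentiated melanoma, is not reported here.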

Additional observations from a re-analysis of the deposited data

Results flagged for a closer look

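The response to corin differed between the lines, by the interaction term of the edgeR fit on 8 libraries, for 5 of 10 members. On the log2 scale, 1205Lu-R minus 451Lu-R, the differences were 0.66 for NFKB1, -0.41 for RELA, -0.42 for NFKBIA, 1.04 for NFKBIE and 1.52 for NFKBIZ. Those for NFKB1, NFKBIE and NFKBIZ passed in all 15 alternatives, that for RELA in 14 and that for NFKBIA in 7.

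Of the 30 other genes named from the pathway lists, 20 also differed between the lines. In 16 of them no group was at 3 counts or fewer. The difference was positive for OTUD7B (1.42), TNFSF13B (1.53), MYD88 (0.84), TAB3 (0.47), TNIP1 (0.43), IRAK1 (0.38) and IL1RAP (0.19). It was negative for TNFRSF11A (-2.20), IRAK2 (-1.95), TNFRSF12A (-1.68), CYLD (-1.16), TLR4 (-1.13), BCL3 (-1.12), NFKBIL1 (-0.58), RNF11 (-0.29) and ITCH (-0.27). Low counts limit IRAK2, with 2 and 8 under DMSO in 451Lu-R, and TNFSF13B, with under 10 in both DMSO libraries of 1205Lu-R. In the other 4 a group was at 3 counts or fewer, so the fitted values depend on the prior count, and they were 5.93 for CCL20, 5.36 for BIRC3, -4.48 for IL1B and -2.35 for MMP9. Of all 16062 genes, 49.7% differed by this test, but the 30 genes were named for a large called change in 1 line, which favours a difference between the lines, so the shares cannot be set against each other.

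Several of these calls did not hold in every alternative. With library size only, the difference was -0.063 for ITCH, -0.075 for RNF11 and -0.37 for NFKBIL1 (adjusted p = 0.515, 0.275 and 0.191). For NFKBIL1 the call was lost in 6 alternatives, among them without 1205Lu-R corin replicate 2 (-0.26, adjusted p = 0.387). BCL3 lost it without 451Lu-R DMSO replicate 2 (-0.73, adjusted p = 0.0864) and without 451Lu-R corin replicate 1 (-0.97, adjusted p = 0.0612). IL1RAP lost it in 6 alternatives (0.14 to 0.21), TNFSF13B in 3 (1.31 to 1.55), BIRC3 without any 1 of the 451Lu-R libraries and IL1B without either 451Lu-R DMSO library. The other 12 of the 20 kept the call in every alternative run.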

How the results depend on the processing

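Over 710 values of the members under an alternative, 657 kept their direction and their side of the threshold, 30 lost and 10 gained a call, and 13 changed sign, none of them called in the reported fit. REL accounted for 8 of the 13. With 1 library left out, its value ran from -0.25 to 0.053 in 451Lu-R (positive without corin replicate 1) and from -0.53 to 0.23 in 1205Lu-R (positive without DMSO replicate 1), and it was 0.27 there when summed with its overlapping gene, an alternative chosen after seeing the data. The difference between the lines for REL was 0.28 with that sum, 0.088 with library size only and -0.47 to 0.31 with 1 library left out (0.042 without 451Lu-R corin replicate 2, 0.31 without 1205Lu-R DMSO replicate 1), and the DMSO contrast of the lines ran from -0.74 to 0.031, the latter without 1205Lu-R DMSO replicate 2. In 451Lu-R, RELA ran from -0.11 to 0.021 (positive without DMSO replicate 2 or corin replicate 2) and NFKBIZ from -0.048 (without DMSO replicate 1) to 0.33. With library size only, the NFKB2 difference was 0.045 and the DMSO contrast of NFKBIB -0.076. Requiring 2-fold left 1 member higher and 2 lower for corin in 451Lu-R, 2 higher and 1 lower for 1205Lu-R, 0 with a lower response in 1205Lu-R, 2 higher in 1205Lu-R with DMSO, and 1 higher and 1 lower with corin. Of the 67 other pathway genes tested in 451Lu-R it left 17 higher and 8 lower, where 22.2% of all genes were higher and 13.3% lower. For 1205Lu-R it left 18 and 6 of 74, where the shares over all genes were 22% and 9.8%. Members called higher in 1205Lu-R numbered 2 with DESeq2 and 2 without the filter. Members with a lower response in 1205Lu-R numbered 2 in edgeR, 1 with DESeq2, 1 without the filter, 1 to 2 when a library was left out, and 0 with library size only, where 1 was under an unadjusted p of 0.05. The cause was not tested. With the longest transcript the subunits held 54.9%, 54.8%, 68.9% and 61.4% in the 4 groups. TNFAIP3 gained the call for its difference with library size only (0.89) and without 451Lu-R corin replicate 2 (0.83) or 1205Lu-R corin replicate 2 (0.82), and NFKBIE rose in 1205Lu-R with library size only (0.29) or without DMSO replicate 1 (0.33).

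Replicate numbers did not pair the libraries, since deviations of libraries with the same number correlated with r from -0.032 to 0.050. With the replicate number as a block, 451Lu-R had 3 members higher and 4 lower, 1205Lu-R had 4 of each, and no call of a member changed. The NFKB1 difference was 0.66 with the block.

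Of the named pathway genes, 6 values lost the call in 451Lu-R, 3 in 1205Lu-R and 25 in the difference between the lines, and none reversed. Depth limits NFKBIZ and TNFAIP3 in 1205Lu-R with DMSO, where 12 to 18 counts stand behind each value.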
